A study of Mus musculus with 16 samples.

Results

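Lysyl oxidases and matrix proteoglycans are 2 sets of genes whose products build and space the fibrous matrix between heart cells. The list held 10 genes: the lysyl oxidases Lox, Loxl1, Loxl2 and Loxl3, the small leucine-rich proteoglycans Lum, Dcn, Bgn, Fmod and Ogn, and the large proteoglycan Vcan. A gene was measured where a probe set's annotation named it alone, and where several did, the brightest on average across the 16 arrays stood for it. This left 9 members among 18193 genes tested. Both Loxl2 probe sets also carry the symbol Gm21451, so Loxl2 was skipped. The 9 members had 28 probe sets, of which the 19 not used for the main values served as a check.

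RNA came from the ventricles of male CD1 mice aged 14 weeks that either lacked the adenosine 2A receptor (A2AR, through which adenosine raises cyclic AMP in cells) or were wild-type littermates. Tissue was taken 24 h after 1 intraperitoneal dose of lipopolysaccharide (LPS, endotoxin from Escherichia coli) at 20 mg/kg or the same volume of saline. The 4 groups were A2AR knockout with LPS, wild-type with LPS, A2AR knockout with saline and wild-type with saline, each with 4 Affymetrix arrays. Per the labels, both genotypes were bred in 1 series from an established A2AR knockout line and typed by PCR, and no restriction of the deletion to a tissue is named. The transcript of the targeted receptor is not reported here, so the genotype of each array rests on its label. Values are log2 probe set summaries, called levels here, so a difference of 1 is a change of 2-fold. A level depends on each probe set's own binding, and no level is compared between genes.

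Collagen and elastin are secreted as soluble precursors, and lysyl oxidases, copper-dependent enzymes, oxidise lysine residues in them so that the fibres become covalently cross-linked. Small leucine-rich proteoglycans coat collagen fibrils and set their diameter and spacing, and several also bind TGF-beta or, once released from the matrix, Toll-like receptors. Versican binds hyaluronan and forms a loose, hydrated matrix that is found around developing and inflamed tissue. In the heart, fibroblasts make most of these proteins.

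Cardiomyocyte markers averaged 13.41 to 13.90 (log2 level) over the 16 arrays and array medians were 4.62 to 4.67. Principal component 1 held 66.3% of the variance over the arrays, and component 2 held 8.60%. Skeletal muscle markers averaged 5.88 and 7.57 in wild-type saline arrays 1 and 4, while the remaining 14 arrays gave 3.75 to 3.97. Wild-type LPS array 4 had the lowest weight (0.217, against 0.285 to 1.91 in the others) when arrays were weighted by their fit. Values without these arrays are given beside results that moved with them. The number of arrays limits the precision. The labels number the samples of a group but do not state that each is a separate animal, so p-values measure the spread between these samples.

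Promoters of the members were looked up because 4 members fell together after LPS while others rose, and 4 of the 9 had an entry in the RefSeq table (GRCm38.p6): Bgn, Fmod and Ogn, which fell, and Vcan, which rose. Each window runs from 250 bases before the annotated start to 50 after it, 5′ to 3′ on the gene's strand. Capitals mark matches to a TATA box (TATAAA) or a GC box (GGGCGG) on either strand. The windows are chrX:73483351-73483650 (plus strand) for Bgn, chr1:134037004-134037303 (plus strand) for Fmod, chr13:49607765-49608064 (plus strand) for Ogn and chr13:89742463-89742762 (minus strand) for Vcan.
Bgn: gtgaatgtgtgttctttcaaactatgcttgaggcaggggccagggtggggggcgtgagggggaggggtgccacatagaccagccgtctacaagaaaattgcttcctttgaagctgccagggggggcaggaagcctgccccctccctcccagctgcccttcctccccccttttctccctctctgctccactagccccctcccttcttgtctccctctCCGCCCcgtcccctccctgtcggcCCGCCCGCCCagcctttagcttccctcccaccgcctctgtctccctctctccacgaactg
Fmod: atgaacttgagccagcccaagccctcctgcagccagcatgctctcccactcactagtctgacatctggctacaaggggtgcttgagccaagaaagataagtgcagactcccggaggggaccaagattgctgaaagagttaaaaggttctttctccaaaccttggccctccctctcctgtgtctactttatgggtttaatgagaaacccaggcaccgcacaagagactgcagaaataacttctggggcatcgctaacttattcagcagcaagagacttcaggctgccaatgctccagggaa
Ogn: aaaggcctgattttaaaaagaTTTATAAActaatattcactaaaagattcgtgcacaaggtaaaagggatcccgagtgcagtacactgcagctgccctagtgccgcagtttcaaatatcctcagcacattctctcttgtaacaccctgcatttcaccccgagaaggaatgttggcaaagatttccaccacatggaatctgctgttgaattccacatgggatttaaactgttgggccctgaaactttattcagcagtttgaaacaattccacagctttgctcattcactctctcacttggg
Vcan: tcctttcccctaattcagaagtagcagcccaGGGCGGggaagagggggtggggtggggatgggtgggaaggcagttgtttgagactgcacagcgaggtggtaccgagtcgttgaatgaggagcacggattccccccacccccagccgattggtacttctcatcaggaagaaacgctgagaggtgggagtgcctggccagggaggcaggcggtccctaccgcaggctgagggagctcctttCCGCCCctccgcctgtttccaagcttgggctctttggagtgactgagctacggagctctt

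Bgn and Vcan had GC-rich windows (63.7% and 61% G or C), with 3 GC boxes in Bgn and 2 in Vcan, and GC boxes were present in 35.7% of the 32851 promoters of the table. Bgn matches began at bases -34, -10 and -6 from the start site, and those of Vcan at -219 and -10. Ogn had the lowest GC content of the 4 (42.3%) and 2 overlapping TATAAA matches on opposite strands at -229 and -227, a motif held by 13.6% of promoters. Fmod (51% G or C) had no match to any of the 5 motifs. The other motifs searched on both strands were AP-1 (TGANTCA, 7.81% of promoters), the E-box (CACGTG, 7.15%) and the kappaB motif (4.51%), and none of the 4 windows held them. A match describes letters only. The windows of Lox, Loxl1, Loxl3, Lum and Dcn are not shown.

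The first comparison asks how the heart's matrix transcripts stood 24 h after LPS in mice with and without the receptor. After LPS, 4 of 9 members rose and 4 fell in knockout hearts, and 3 rose and 4 fell in wild-type hearts (limma, adjusted p under 0.05 over all genes). Over all genes tested, 11.4% rose and 14.7% fell in knockout hearts, and 9.28% rose and 11.6% fell in wild-type hearts. Lox, Loxl3 and Vcan were the members that rose in both genotypes, Lum, Bgn, Fmod and Ogn fell in both, and Dcn by its main probe set passed the test in neither. The rises and falls nearly cancelled, with a median log2 change of -0.05 over the members in knockout hearts (-0.02 over all genes) and 0.09 in wild-type hearts (-0.00 over all genes). Without regard to direction, the median change was 1.38 in knockout hearts and 0.99 in wild-type hearts, against 0.17 and 0.15 over all genes. All 9 members had a mean level above the median of all probe sets, whereas the genes tested also include dimmer ones. The members were also chosen with earlier results of these data known. Contrasts with all genes are therefore not between sets matched for level or for choice, and a matched contrast was not tested.

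**Figure D1:**
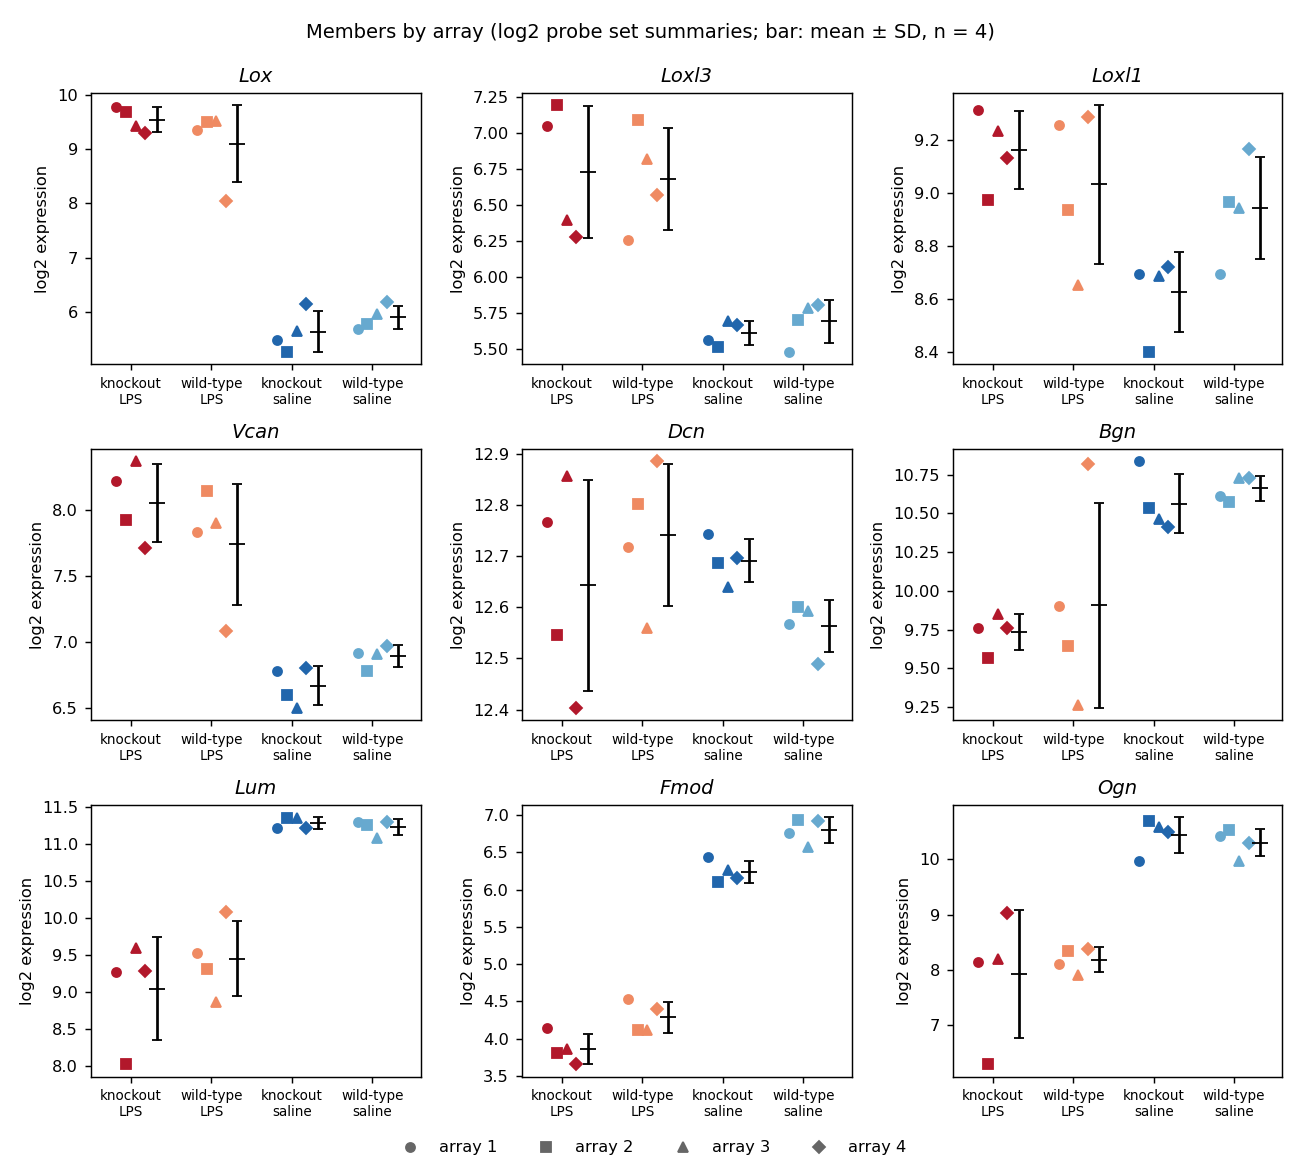
Log2 level (vertical axis) of each of the 9 members in each of the 16 arrays, by group, with the group mean and SD (n = 4). Lox lies at 8.04 to 9.77 in LPS arrays and 5.26 to 6.17 in saline arrays, while Dcn stays between 12.40 and 12.89 in all 4 groups.

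Among the lysyl oxidases, Lox had the largest change of any member. Its level was 9.77, 9.69, 9.42 and 9.30 in knockout LPS hearts, 9.36, 9.49, 9.51 and 8.04 in wild-type LPS hearts, 5.48, 5.26, 5.64 and 6.14 in knockout saline hearts and 5.69, 5.77, 5.95 and 6.17 in wild-type saline hearts. All 8 LPS arrays lay above all 8 saline arrays, and wild-type LPS array 4 was the lowest of the LPS arrays. Lox rose by 3.91 ± 0.27 on the log2 scale (SE, adjusted p = 2.59e-08) in knockout hearts, a 15.05-fold change that ranked 46 from the top among all genes. The rise in wild-type hearts was 3.20 ± 0.27 (adjusted p = 2.62e-07), which is 9.21-fold and ranked 72. Leaving out wild-type LPS array 4 gave a wild-type log2 change of 3.56. A second Lox probe set above the median level gave log2 changes of 3.44 and 2.89, and a dim one below it 0.42 and 0.42, in knockout and wild-type hearts.

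Loxl3, a lysyl oxidase family member that also acts on collagen and elastin, read 7.05, 7.20, 6.40 and 6.28 in knockout LPS hearts and 6.25, 7.09, 6.82 and 6.57 in wild-type LPS hearts. Saline levels were 5.57, 5.52, 5.70 and 5.67 in knockout hearts and 5.48, 5.70, 5.78 and 5.80 in wild-type hearts. The LPS and saline arrays did not overlap, and the LPS arrays were spread more widely. The rises were 1.12 ± 0.20 (adjusted p = 0.000457) in knockout hearts and 0.99 ± 0.20 (adjusted p = 0.00153) in wild-type hearts on the log2 scale, or about 2.17-fold and 1.99-fold.

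Loxl1, which in mice is needed for elastic fibre renewal, differed little by comparison. Knockout LPS hearts read 9.32, 8.97, 9.24 and 9.14, and wild-type LPS hearts 9.26, 8.94, 8.65 and 9.29. Knockout saline hearts read 8.70, 8.40, 8.69 and 8.72, and wild-type saline hearts 8.70, 8.97, 8.95 and 9.17. The LPS arrays lay above the saline arrays in knockout hearts and overlapped with them in wild-type hearts. Loxl1 rose by 0.54 ± 0.14 (log2, adjusted p = 0.00995) in knockout hearts, whereas the wild-type change was 0.09 ± 0.14 (adjusted p = 0.742, 95% interval -0.21 to 0.39) and did not pass. The second Loxl1 probe set gave log2 changes of 0.71 in knockout hearts (adjusted p = 0.00101) and 0.34 in wild-type hearts (adjusted p = 0.104). Averaged over both genotypes, Loxl1 rose by 0.31 ± 0.10 (adjusted p = 0.0223), which did not pass without wild-type saline array 1, wild-type LPS array 1 or knockout saline array 2 (adjusted p = 0.0533, 0.0506 and 0.0527), nor without wild-type saline arrays 1 and 4 together (0.0550). By that mean LPS effect 4 members rose and 4 fell, against 15.4% and 19.5% of all genes. Set against Loxl1 in the same array, Lox stood higher after LPS than after saline by 3.37 in knockout hearts and 3.11 in wild-type hearts (log2 difference), with no overlap of LPS and saline arrays, and set against Loxl3 by 2.79 and 2.21.

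Biglycan and decorin are close relatives in class I of the small leucine-rich proteoglycans, and only Bgn changed by its main probe set. Bgn read 9.76, 9.57, 9.85 and 9.76 in knockout LPS hearts, 9.90, 9.64, 9.26 and 10.82 in wild-type LPS hearts, 10.84, 10.54, 10.46 and 10.41 in knockout saline hearts and 10.61, 10.58, 10.73 and 10.73 in wild-type saline hearts. The groups were separate in knockout hearts, but wild-type LPS array 4 lay above every wild-type saline array. Bgn fell in both, with log2 changes of -0.83 ± 0.22 (adjusted p = 0.0104) in knockout hearts and -0.75 ± 0.22 (adjusted p = 0.0214) in wild-type hearts. This second call was lost when wild-type saline array 3 or 4 or wild-type LPS array 2 or 3 was left out (adjusted p = 0.0529, 0.0545, 0.0711 and 0.0812), and without wild-type saline arrays 1 and 4 together (adjusted p = 0.124). Leaving out wild-type LPS array 4 gave a log2 change of -1.06 (adjusted p = 1.54e-05). The 2 other Bgn probe sets fell in both genotypes, with log2 changes of -0.94 and -0.80 in knockout hearts and -0.77 and -0.75 in wild-type hearts.

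Averaged over both genotypes, decorin was the member whose level moved least by the main probe sets (0.07 ± 0.06, log2). Dcn read 12.77, 12.55, 12.86 and 12.40 in knockout LPS hearts, 12.72, 12.80, 12.56 and 12.89 in wild-type LPS hearts, 12.74, 12.69, 12.64 and 12.70 in knockout saline hearts and 12.57, 12.60, 12.59 and 12.49 in wild-type saline hearts. LPS and saline arrays overlapped in both genotypes. The log2 change was -0.05 ± 0.09 (adjusted p = 0.759, 95% interval -0.24 to 0.14) in knockout hearts and 0.18 ± 0.09 (adjusted p = 0.190, 95% interval -0.01 to 0.37) in wild-type hearts. A second, dimmer Dcn probe set differed from it: its level rose by 0.69 (adjusted p = 0.0168) in knockout hearts and 0.89 (adjusted p = 0.00405) in wild-type hearts on the log2 scale. The mean of the Dcn probe sets gave 0.32 (adjusted p = 0.0565) in knockout hearts and 0.53 (adjusted p = 0.00389) in wild-type hearts, where it passed. Relative to Dcn in the same array, Bgn was lower after LPS than after saline by a log2 difference of -0.78 in knockout hearts and -0.93 in wild-type hearts. LPS and saline arrays did not overlap in this difference, but narrowly in wild-type hearts, with nearest values of -2.06 after LPS and -2.03 after saline. The former was that of wild-type LPS array 4, which had the highest Dcn level of its group (12.89) and a Bgn level above the wild-type saline arrays.

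**Figure D2:**
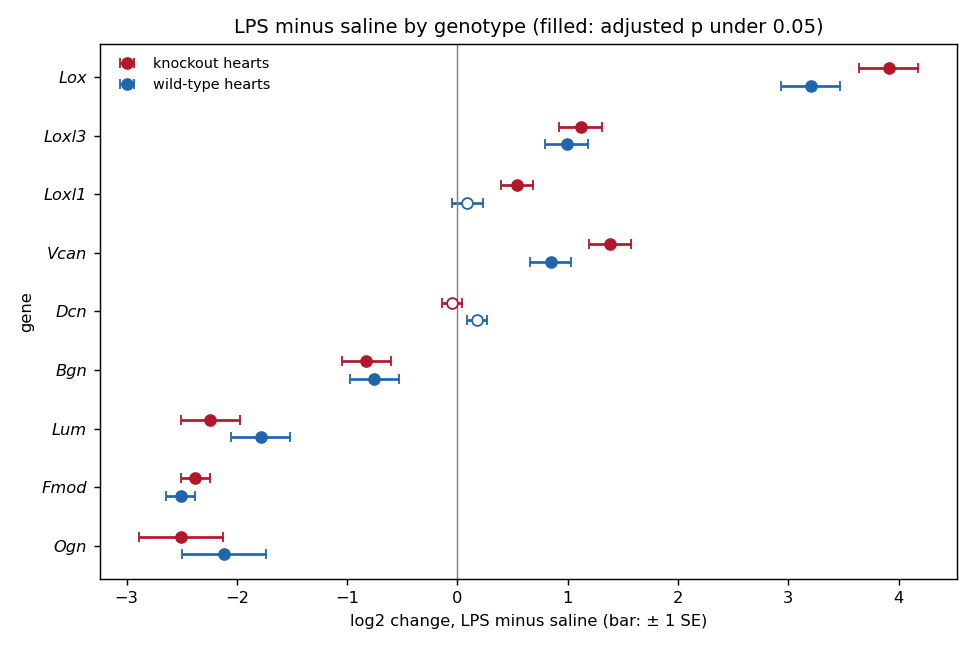
Log2 change of the 9 members, LPS minus saline (horizontal axis), with limma's standard error, in knockout and wild-type hearts; filled points passed the test. Lox stands at 3.91 and 3.20, Dcn near 0, and Lum, Fmod and Ogn between -2.51 and -1.78.

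Lumican and fibromodulin, class II proteoglycans that bind the same region of collagen and regulate fibril growth, both fell. Lum read 9.26, 8.02, 9.60 and 9.27 in knockout LPS hearts, 9.52, 9.30, 8.86 and 10.08 in wild-type LPS hearts, 11.22, 11.35, 11.34 and 11.21 in knockout saline hearts and 11.29, 11.25, 11.07 and 11.29 in wild-type saline hearts. Every LPS array was below every saline array, and the saline arrays lay close together. In knockout hearts it fell by 2.24 ± 0.27 on the log2 scale (adjusted p = 1.24e-05, 4.73-fold lower). In wild-type hearts Lum fell by 1.78 ± 0.27 on the log2 scale (adjusted p = 0.000138, 3.44-fold lower).

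Fmod had the smallest p of any member. It read 4.14, 3.81, 3.86 and 3.66 in knockout LPS hearts, 4.53, 4.11, 4.12 and 4.40 in wild-type LPS hearts, 6.44, 6.10, 6.26 and 6.16 in knockout saline hearts and 6.76, 6.94, 6.57 and 6.92 in wild-type saline hearts. LPS and saline arrays were separated by a wide gap, and all 8 LPS arrays lay below the median level of all probe sets (4.66), so the size of the fall depends on the array background. The log2 changes were -2.38 ± 0.13 (adjusted p = 1.57e-09) in knockout hearts and -2.51 ± 0.13 (adjusted p = 9.14e-10) in wild-type hearts, ranks 44 and 19 from the bottom among all genes. Its 5 other probe sets, all with means below that median, also fell in both genotypes, with log2 changes between -0.97 and -0.39. Set against Lum in the same array, the log2 difference after LPS minus after saline was -0.14 in knockout hearts, where arrays overlapped, and -0.73 in wild-type hearts, where they did not.

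Osteoglycin (Ogn, also called mimecan) is the class III member and binds collagen fibrils. Its level was 8.14, 6.30, 8.20 and 9.04 in knockout LPS hearts, 8.11, 8.34, 7.90 and 8.39 in wild-type LPS hearts, 9.96, 10.70, 10.58 and 10.49 in knockout saline hearts and 10.41, 10.52, 9.97 and 10.29 in wild-type saline hearts. LPS arrays were all lower than saline arrays, and the knockout LPS arrays were the most scattered. Ogn fell in both genotypes, with log2 changes of -2.51 ± 0.38 (adjusted p = 0.000121) in knockout hearts and -2.11 ± 0.38 (adjusted p = 0.000689) in wild-type hearts. Without knockout LPS array 2, which was the lowest for both Lum and Ogn, the knockout log2 changes were -1.97 for Ogn and -1.90 for Lum. The other Ogn probe set gave -2.61 and -2.24 in knockout and wild-type hearts.

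Versican was the only proteoglycan measured here among the members that rose by its main probe set. Vcan read 8.22, 7.93, 8.37 and 7.71 in knockout LPS hearts, 7.83, 8.14, 7.90 and 7.09 in wild-type LPS hearts, 6.78, 6.60, 6.50 and 6.81 in knockout saline hearts and 6.92, 6.78, 6.91 and 6.97 in wild-type saline hearts. The LPS arrays were above the saline arrays in both genotypes, with wild-type LPS array 4 nearest to them. Vcan rose by 1.38 ± 0.19 (adjusted p = 4.21e-05, 2.61-fold) in knockout hearts and by 0.85 ± 0.19 (adjusted p = 0.00336, 1.80-fold) in wild-type hearts on the log2 scale. Leaving out wild-type LPS array 4 gave a wild-type log2 change of 1.07. The 2 other Vcan probe sets with means above the median level rose too, with log2 changes of 2.06 and 0.69 in knockout hearts and 1.67 and 0.71 in wild-type hearts. The 5 with means below it had log2 changes between -0.29 and 0.14, and 1 of them fell in knockout hearts (-0.29, adjusted p = 0.0195).

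**Figure D3:**
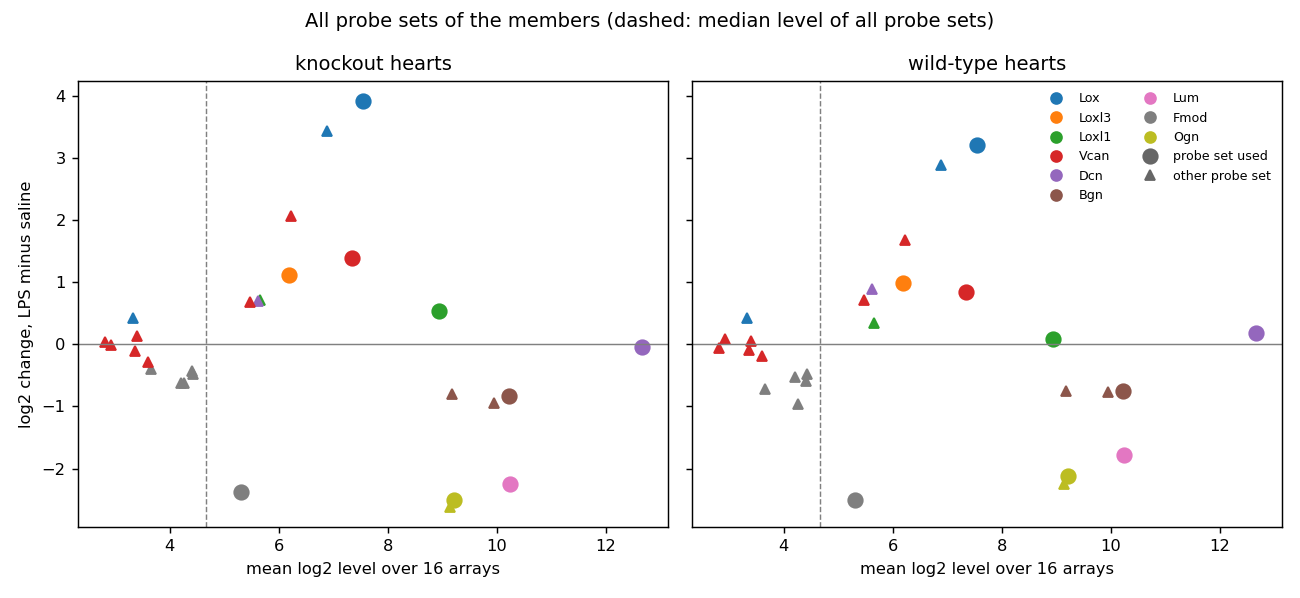
Log2 change, LPS minus saline (vertical axis), against the mean log2 level over 16 arrays (horizontal axis) for all 28 probe sets of the members, in knockout and wild-type hearts. Probe sets left of the dashed line, the median level of 4.66, show changes near 0 for Vcan and smaller falls for Fmod than the main probe set.

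The ranges of LPS and saline arrays were separate for 8 of 9 members in knockout hearts and 6 in wild-type hearts, as they were for 28.5% and 22.8% of all genes. Wild-type LPS array 4 was the LPS array nearest to the saline arrays for Lox, Lum and Vcan. Of 12 fibroblast markers, none of them a member, 6 fell in knockout hearts and 5 in wild-type hearts, with a median log2 change of -0.97 and -0.85. Of all genes, 14.7% and 11.6% fell. Dpt, which encodes the matrix protein dermatopontin, had log2 changes of -1.36 ± 0.22 (adjusted p = 0.000246) in knockout hearts and -1.5 ± 0.22 (adjusted p = 0.000125) in wild-type hearts. Gsn, which encodes an actin-severing protein, had -1.45 ± 0.27 and -1.20 ± 0.27 and passed in both, though the mean of its probe sets gave 0.03 and -0.54, and passed in neither. Pi16, a marker of a fibroblast subset, had -2.17 (adjusted p = 0.00689) and -1.55 (adjusted p = 0.0541), and its wild-type fall passed without wild-type LPS array 4, knockout LPS array 2 or knockout LPS array 4. The collagen genes Col1a1, Col1a2 and Col3a1 and the receptor gene Pdgfra passed in neither genotype, and Mfap5 had positive log2 changes of 0.22 and 0.10 that did not pass. The mean level of each of the 12 markers lay above the median level.

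The mean level of the fibroblast list was 7.91 to 8.62 in knockout LPS arrays, 7.84 to 9.36 in wild-type LPS arrays, 9.15 to 9.28 in knockout saline arrays and 9.23 to 9.39 in wild-type saline arrays. The value of 9.36 was that of wild-type LPS array 4, inside the wild-type saline range, and without that array 8 of the 12 fell in wild-type hearts. Without wild-type saline arrays 1 and 4, 3 did. In whole tissue, fewer fibroblasts and less RNA per fibroblast cannot be told apart, and the part of the markers in the members' falls was not tested. Among 10 markers of smooth muscle and pericytes, 8 fell in each genotype, with median log2 changes of -0.96 and -0.99 in knockout and wild-type hearts. Cardiomyocyte markers fell for 6 of 10 and atrial markers for 4 of 5 in each genotype, and endothelial markers for 4 of 9 in knockout hearts and 3 of 9 in wild-type hearts. Neutrophil markers, of which 1 of 9 had a mean above the median level, rose for 4 of 9 in knockout hearts and 3 of 9 in wild-type hearts. Of all genes, 11.4% rose and 14.7% fell in knockout hearts, and 9.28% rose and 11.6% fell in wild-type hearts. The part of these lists in the members' changes was not tested.

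The genotype comparison asks whether loss of the A2AR moved the same genes under either treatment. None of the 9 members passed, against 1 gene of 18193 (0.0055%) in knockout against wild-type after LPS, after saline and in the mean of both (limma, adjusted p under 0.05). At an unadjusted p under 0.05 the members numbered 1 after LPS, 2 after saline and 1 in the mean, and all genes 1375, 634 and 937. Knockout and wild-type arrays were separate for 0 of 9 members after LPS (2.26% of all genes) and for 2 of 9 after saline (3.89% of all genes), Dcn being higher and Fmod lower in knockout hearts.

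Fmod was the member with the smallest p in each genotype comparison. Its level averaged 3.86 ± 0.20 in knockout LPS hearts and 4.29 ± 0.21 in wild-type LPS hearts (SD, n = 4 arrays each), and 6.24 ± 0.15 in knockout saline hearts and 6.80 ± 0.17 in wild-type saline hearts. The knockout minus wild-type difference was -0.42 ± 0.13 after LPS (adjusted p = 0.595), -0.56 ± 0.13 after saline (adjusted p = 0.583) and -0.49 ± 0.09 in the mean (adjusted p = 0.122) on the log2 scale. Before adjustment limma gave 0.00490, 0.000568 and 6.4e-05 for these differences. With arrays weighted by their fit, the saline difference was -0.60 and passed (adjusted p = 0.0346). After saline, the 5 dim Fmod probe sets differed by -0.33 to -0.09, all with the same sign, and none passed. After LPS they differed by -0.31 to 0.21, so the sign was not shared.

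Loxl1 was the other member with an unadjusted p under 0.05 after saline, at a mean level of 8.63 ± 0.15 in knockout hearts and 8.94 ± 0.19 in wild-type hearts (SD, n = 4 arrays each). The log2 difference was -0.32 ± 0.14, with an adjusted p of 1 by limma. For Lox the difference was 0.44 ± 0.27 after LPS (95% interval -0.13 to 1.01) and -0.26 ± 0.27 after saline (-0.83 to 0.30). Vcan differed by 0.31 ± 0.19 after LPS (-0.08 to 0.71) and -0.22 ± 0.19 after saline (-0.62 to 0.17). The intervals were widest for Ogn, at -1.07 to 0.54 after LPS and -0.67 to 0.94 after saline.

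**Figure D4:**
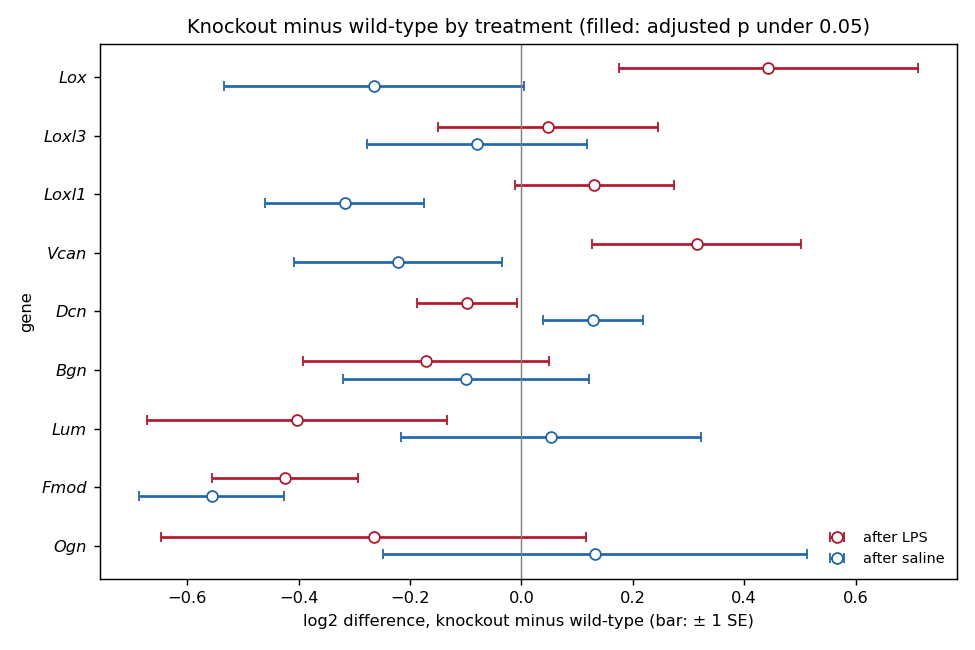
Log2 difference of the 9 members, knockout minus wild-type (horizontal axis), with limma's standard error, after LPS and after saline; no point passed the test. Fmod lies at -0.42 after LPS and -0.56 after saline.

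The size of the LPS response was also compared between genotypes by the interaction, the LPS change in knockout hearts minus that in wild-type hearts. None of the 9 members passed, as did 0% of all genes, and 1 member and 813 genes had an unadjusted limma p under 0.05. That member was Loxl1, with an interaction of 0.45 ± 0.20 (unadjusted p = 0.0411, adjusted p = 0.959), so its pass in knockout hearts alone does not show a difference between genotypes. Lox had an interaction of 0.71 ± 0.38 (adjusted p = 0.959), which became 0.35 when wild-type LPS array 4 was left out. Vcan had 0.54 ± 0.26 (adjusted p = 0.959), which became 0.32. The Loxl1 interaction grew instead, to 0.53 (adjusted p = 0.855), when wild-type LPS array 4 was left out. Among the members that fell, the interaction was -0.46 ± 0.38 for Lum, -0.40 ± 0.54 for Ogn, -0.07 ± 0.31 for Bgn and 0.13 ± 0.19 for Fmod. Dcn had -0.23 ± 0.13 and Loxl3 0.13 ± 0.28.

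Related gene lists show what else of the same matrix systems changed. The members were not part of these lists. The counts below can be set beside those over all genes. In knockout hearts 11.4% of all genes rose and 14.7% fell, and in wild-type hearts 9.28% rose and 11.6% fell. In the list of other small leucine-rich proteoglycans, 4 of 8 measured genes fell in both genotypes and none rose, with median log2 changes of -0.62 and -0.58 in knockout and wild-type hearts (-0.02 and -0.00 over all genes). Ecm2, which encodes a relative of these proteins, had log2 changes of -2.89 ± 0.31 (adjusted p = 3.57e-06) in knockout hearts and -2.38 ± 0.31 (adjusted p = 3.23e-05) in wild-type hearts. Aspn, which encodes asporin, a class I relative of biglycan and decorin, had -2.10 ± 0.31 and -2.21 ± 0.31. Epyc, a class III gene, had -0.78 ± 0.09 and -0.91 ± 0.09. Mean levels after LPS lay below the median level for Ecm2 (3.52 and 4.00) and Epyc (3.71 and 3.77), so the size of these falls depends on the background. Among genes with a mean above the median level, 2 of this list passed in each genotype.

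These falls include the genes next to Ogn. In the RefSeq gene order of chromosome 13, Ecm2, Aspn, Omd and Ogn follow each other, and all 4 fell in both genotypes, Omd (osteomodulin) with log2 changes of -0.72 ± 0.11 in knockout hearts and -0.79 ± 0.11 in wild-type hearts at LPS levels (3.78 and 3.92) below the median level. The 2 genes measured on the other side of Ogn, Nol8 and Iars, did not pass. Lum and Dcn are also close neighbours, on chromosome 10, with Kera and Epyc beyond Lum. In that cluster Lum and Epyc fell while Dcn and Kera did not pass, Kera with log2 changes of -0.07 and -0.12, and Btg1, a growth-regulating gene on the far side of Dcn, rose (0.64 and 0.55). Next to Fmod lie Prelp, with log2 changes of -0.52 (adjusted p = 0.144) and -0.36 (adjusted p = 0.365), and Optc, with -0.11 (adjusted p = 0.508) and -0.35 (adjusted p = 0.0253), in knockout and wild-type hearts. On the other side of Fmod, Btg2 and Chit1 lie nearest, and Chil1, the third gene, rose by 1.67 (adjusted p = 1.2e-06) in knockout hearts and 1.11 (adjusted p = 0.000101) in wild-type hearts on the log2 scale. Vcan lies next to Hapln1, the gene of its link protein, which did not pass (0.05 and -0.03) at a mean level of 2.97, below the median level. Within 3 genes of Vcan, Cox7c fell, with log2 changes of -0.69 (adjusted p = 0.00106) in knockout hearts and -0.80 (adjusted p = 0.000387) in wild-type hearts. Tmem167 rose in knockout hearts (0.76, adjusted p = 0.00993) and did not pass in wild-type hearts (0.30, adjusted p = 0.349). The other genes measured there did not pass. These neighbours other than the list genes were looked up after the members' values had been seen.

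Of 7 proteases that cut versican, 4 rose in each genotype, 1 fell in knockout hearts (Adamts5, -0.76, adjusted p = 0.0227) and none fell in wild-type hearts, with median log2 changes of 1.31 and 0.71. Adamts4 rose by 4.22 ± 0.52 (adjusted p = 1.46e-05) in knockout hearts and 3.33 ± 0.52 (adjusted p = 0.00018) in wild-type hearts on the log2 scale. Adamts1 rose by 2.32 ± 0.48 and 1.53 ± 0.48, and Adamts9 by 2.18 ± 0.38 and 1.38 ± 0.38. In wild-type hearts the call for Adamts1 was lost without any single saline array or LPS array 2 or 3, and that for Adamts9 without saline array 1 or LPS array 2 or 3. The wild-type count was 1 without wild-type saline array 1, and 2 without wild-type saline array 2, wild-type LPS array 2 or wild-type LPS array 3. It was also 1 without wild-type saline arrays 1 and 4 together, when Adamts1 and Adamts9 did not pass (adjusted p = 0.128 and 0.126). Adamts4 lay below the median level after saline (3.95 and 4.35), so the size of its rise depends on the background.

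Among 16 genes of hyaluronan, the sugar polymer to which versican attaches, 3 rose and 1 fell in each genotype, with median log2 changes of 0.04 and 0.12. Of all genes, 11.4% rose and 14.7% fell in knockout hearts, and 9.28% rose and 11.6% fell in wild-type hearts. Cd44, the main hyaluronan receptor, rose by 1.47 ± 0.17 (adjusted p = 9.43e-06) in knockout hearts and 1.16 ± 0.17 (adjusted p = 0.000118) in wild-type hearts on the log2 scale. Tnfaip6, whose product TSG-6 cross-links hyaluronan in inflamed tissue, rose by 1.06 ± 0.22 and 1.08 ± 0.22. Has3, a hyaluronan synthase, fell, with log2 changes of -0.51 ± 0.10 and -0.41 ± 0.10, at levels below the median. Has1, another synthase, rose by 0.34 ± 0.12 (adjusted p = 0.0451) and 0.51 ± 0.12 (adjusted p = 0.00532) on the log2 scale, at levels above the median. Has2 passed in neither genotype, so the synthases did not share a direction. Without wild-type saline arrays 1 and 4, 2 of the list rose and none fell in wild-type hearts, and Has3 did not pass there (adjusted p = 0.0739).

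Of 18 genes that activate lysyl oxidases or assemble elastic fibres, 1 rose and 10 fell in knockout hearts and 2 rose and 9 fell in wild-type hearts, with median log2 changes of -0.45 and -0.52. Ltbp4, which guides elastin onto microfibrils, had log2 changes of -2.38 ± 0.29 (adjusted p = 1.60e-05) in knockout hearts and -2.12 ± 0.29 (adjusted p = 6.23e-05) in wild-type hearts. Fbln5, an elastin-binding fibulin, had -2.17 ± 0.22 and -1.92 ± 0.22. Pcolce2, an enhancer of procollagen cleavage, had -2.09 ± 0.39 and -1.39 ± 0.39, but the wild-type call was lost without wild-type LPS array 1, 2 or 3, and without wild-type saline arrays 1 and 4 together (adjusted p = 0.101). The wild-type total of 11 genes became 7 without wild-type saline array 3 or 4 or wild-type LPS array 1 or 3, and 6 without wild-type LPS array 2 or without wild-type saline arrays 1 and 4 together. Among the activators, Bmp1 and Tll1, proteases, and Atp7a, a copper transporter, passed in neither genotype. Fbln1 and Mfap5 of this list are also fibroblast markers.

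Collagen genes and their modifying enzymes gave 1 rise and 4 falls among 14 genes in each genotype, with median log2 changes of -0.33 and -0.53. Falls made up 14.7% of all genes in knockout hearts and 11.6% in wild-type hearts. Plod3, a lysyl hydroxylase, rose by 0.68 ± 0.11 (adjusted p = 0.000276) in knockout hearts and 0.85 ± 0.11 (adjusted p = 4.03e-05) in wild-type hearts on the log2 scale. P4ha2, a prolyl hydroxylase subunit, fell, with log2 changes of -0.88 ± 0.22 and -0.82 ± 0.22. Without wild-type LPS array 4, 8 genes passed in knockout hearts and 11 in wild-type hearts, and without wild-type saline array 2 or 4 or wild-type LPS array 2 or 3, 3 passed in wild-type hearts. With wild-type saline arrays 1 and 4 left out together, 1 passed there, and in a fit of the 2 wild-type groups alone 2 did. P4ha2 lost its wild-type call in both settings (adjusted p = 0.111 and 0.0532). Among 21 enzymes that build the chondroitin and dermatan sulphate chains these proteoglycans carry, 2 rose in knockout hearts and 1 in wild-type hearts and none fell, against 11.4% and 9.28% of all genes that rose. Chpf2, a chain-polymerising factor, was the one that rose in both, by 1.14 ± 0.21 and 0.88 ± 0.21. Without wild-type LPS array 4, 2 of these enzymes rose and 2 fell in knockout hearts, and 2 rose and 1 fell in wild-type hearts. Leaving out knockout LPS array 4 gave 3 rises and 1 fall in knockout hearts, and 2 rises and no fall in wild-type hearts. Without knockout LPS array 2, 2 passed in wild-type hearts, and without wild-type saline arrays 1 and 4 together none did (Chpf2, adjusted p = 0.0644).

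**Figure D5:**
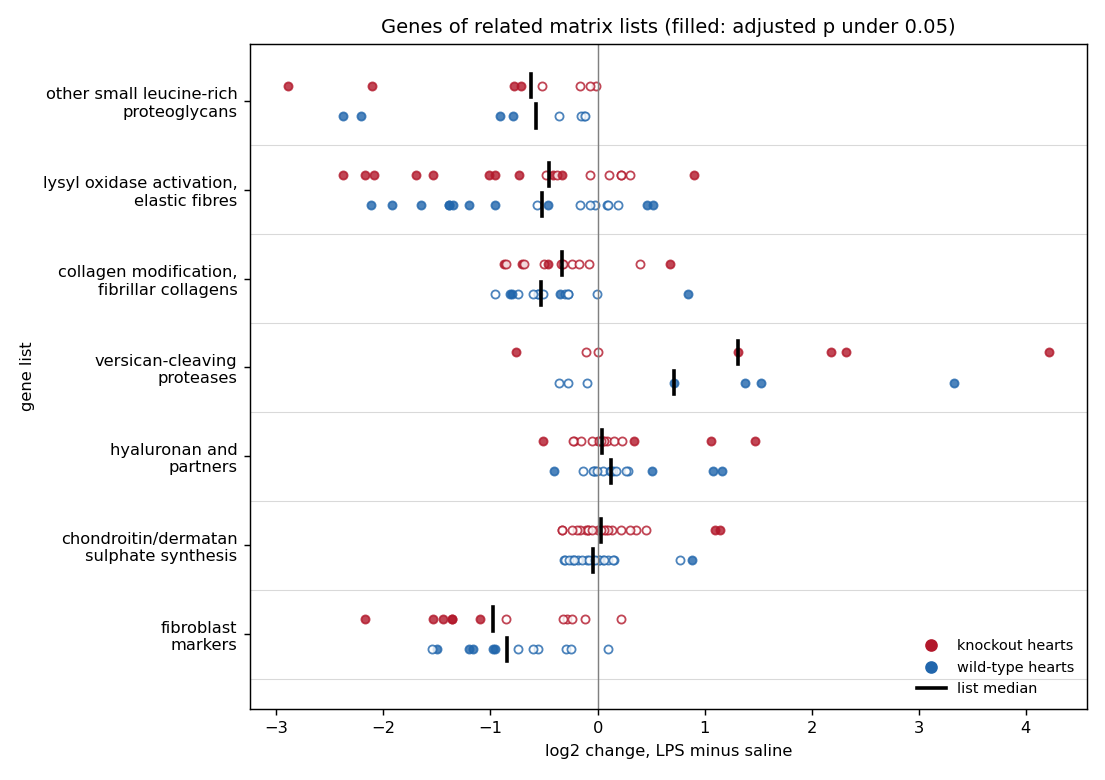
Log2 change, LPS minus saline (horizontal axis), of each gene in the lists of related matrix genes, in knockout and wild-type hearts; filled points passed the test. The other small leucine-rich proteoglycans all lie below 0 and the versican-cleaving proteases reach 4.22.

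Signalling systems that these proteoglycans bind were listed as well, to be set beside the shares of all genes. Those were 11.4% rising and 14.7% falling in knockout hearts, and 9.28% and 11.6% in wild-type hearts. Of 8 TGF-beta ligands, receptors and binding proteins, 2 rose and 2 fell in knockout hearts and 1 rose and 2 fell in wild-type hearts. Tgfbr2, the type II receptor, rose by 1.12 ± 0.12 (adjusted p = 5.68e-06) in knockout hearts and 0.98 ± 0.12 (adjusted p = 2.74e-05) in wild-type hearts on the log2 scale, and Tgfb3 fell, with log2 changes of -0.80 ± 0.19 and -0.91 ± 0.19. Tgfb2 had log2 changes of 1.41 (adjusted p = 0.00411) and 0.56 (adjusted p = 0.272), the second of which was 0.87 (adjusted p = 0.0399) without wild-type LPS array 4. Of 6 receptors and partners through which soluble biglycan or versican acts, 3 rose and 1 fell in knockout hearts and 4 rose in wild-type hearts. Tlr2 rose by 3.02 ± 0.32 (adjusted p = 3.69e-06) and 3.18 ± 0.32 (adjusted p = 2.48e-06), and its co-receptor Cd14 by 1.79 ± 0.14 and 2.28 ± 0.14. The wild-type count was 2 in place of 4 without wild-type saline array 1, 2 or 3 or wild-type LPS array 1 or 2, and also without wild-type saline arrays 1 and 4 together.

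Genes whose pattern over the 16 arrays was most like that of a member were ranked by the root mean square of the log2 difference after each gene was centred on its own mean. Nearest to Lox were Ctla2b (0.326) and Chil3 (0.363), against a root mean square of 1.83 for Lox itself, and nearest to Loxl3 were Phc2 (0.160) and St6galnac4 (0.162). Lum lay nearest to Fbln5 (0.222) and Col6a3 (0.235), Bgn to Bicc1 (0.115) and Cbfa2t3 (0.141), Fmod to Retnla (0.313) and Igf1 (0.318), and Ogn to Mme (0.316) and Klhdc8a (0.375). Vcan lay nearest to Traf3ip2 (0.174) and Lrrc59 (0.176). Among the members themselves the smallest differences were those of Loxl1 with Dcn (0.272), Loxl3 with Vcan (0.330) and Lum with Ogn (0.381). The largest was that of Lox with Fmod (3.05). This measure is not scaled to the size of a gene's own changes, so 2 genes that change little lie close whatever their patterns. In knockout hearts Loxl1 had a log2 change of 0.54 after LPS and Dcn one of -0.05. All of these genes were compared over the same LPS and saline arrays.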

How the data were processed

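Total RNA was hybridised to Affymetrix arrays, and the deposited table gives log2 summaries per probe set, made with RMA (which corrects background, normalizes by quantiles and summarises probes) per the submitters' processing notes. No version or setting of RMA was found in those notes, so other background corrections or normalizations of the scans were not run. All 16 columns were used, with 0 missing values; of 45101 probe sets, 34945 carried 1 gene symbol in the platform annotation, 932 several and 9160 were unnamed here. Of 9010 genes with over 1 probe set, the one with the highest mean was used. Group means for the 18193 genes were fitted over the 16 arrays together in limma 3.58.1 (R 4.3.3), with an intensity trend and two-sided tests. P values were adjusted by Benjamini-Hochberg over all genes, with a threshold of 0.05, and the fit was tested on simulated data. Errors are limma standard errors for changes and SD for levels.

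The members, the gene lists and the rule for named genes were chosen with earlier results of these data known. By that rule, up to 3 called genes per list with the largest mean LPS effect and the 2 genes nearest to each member called in both genotypes could be named. Omd, Kera, Prelp, Optc, Btg1, Btg2, Chit1, Chil1, Hapln1, Cox7c, Tmem167, Nol8 and Iars were named as chromosomal neighbours, and Mfap5, Fbln1, Pdgfra, Col1a1, Col1a2 and Col3a1 as markers and Adamts5, Has1, Has2, Bmp1, Tll1 and Atp7a as list genes, outside that rule and after their values had been seen. Alternatives were leaving out arrays, the replicate number as a block, other probe sets or their mean, a filter on dim genes, array centring, no trend, array weights and fits of the groups compared alone.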

Additional observations from a re-analysis of the deposited data

Results flagged for a closer look

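In each of the 36 sets of 4 arrays (9 members in 4 groups), the array farthest from the others was tested by Dixon's ratio of gap to range at its 95% level, which chance alone passes in about 1 of 20 sets. It found 2 arrays. Lox in wild-type LPS array 4 was 8.04 (log2 level), while arrays 1 to 3 of that group gave 9.36 to 9.51, and its gap took 0.897 of the range. Loxl1 in knockout saline array 2 was 8.40, while arrays 1, 3 and 4 of that group gave 8.69 to 8.72, with a ratio of 0.888.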

How the results depend on the processing

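Of 450 member values for LPS against saline, over all alternatives but other probe sets, 438 kept their direction and their side of the threshold, 6 lost the call, 1 gained it and 5 changed sign. Many could not change direction, because leaving out arrays of 1 genotype keeps the log2 change of the other. The replicate block, the fit without trend and the fits of the groups compared alone also keep every log2 change. The 6 lost calls were all Bgn in wild-type hearts. The gained call was Dcn in wild-type hearts, as the mean of its probe sets (0.53, adjusted p = 0.00389). The sign changes were those of Dcn in knockout hearts, whose log2 change was 0.32 as the mean of its probe sets, 0.0025 with each array centred, 0.0226 with array weights and -0.119 to 0.032 when 1 array was left out (0.032 without knockout LPS array 4), and of the Loxl1 change in wild-type hearts (-0.00817) with wild-type LPS array 4 and wild-type saline arrays 1 and 4 left out, an alternative added after the data were seen. Of other probe sets with the opposite sign, the second Dcn set gave 0.69 in knockout hearts, and the dim Vcan sets gave -0.29, -0.11 and -0.00475 in knockout hearts, -0.18, -0.084 and -0.055 in wild-type hearts, and -0.11, -0.029 and -0.092 for the interaction, for which a brighter Vcan set gave -0.021. Dim sets also gave -0.004 for the Lox interaction and 0.21 after LPS and 0.037 in the mean for Fmod in knockout against wild-type; the cause was not tested. The mean of its probe sets gave Gsn a log2 change of 0.0278 in knockout hearts. With 1 array left out, 8 members passed in knockout hearts in every case, 6 to 7 in wild-type hearts and 7 to 8 in the mean LPS effect, and 0 in every genotype comparison. With array weights, 1 member (Fmod) passed in knockout against wild-type after saline. Bgn in wild-type hearts did not pass in a fit of the 2 groups alone (adjusted p = 0.0825).

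Same-numbered arrays of different groups did not all deviate together (correlations of -0.271 to 0.33). Arrays with different numbers were not compared in this way, so whether the numbers pair samples stays unknown. With the replicate block, 8 members passed in knockout hearts and 7 in wild-type hearts, as without it.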
